A study of Mus musculus with 18 samples.

Results

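The enzymes described here are 9 nuclear-encoded proteins of the citric acid cycle, followed at the level of their transcripts in ileum cells of the mouse. They were chosen by gene name: *Cs*, *Idh3a*, *Idh3b*, *Idh3g*, *Ogdh*, *Dlst*, *Suclg1*, *Sucla2* and *Fh1*. The arrays carried 19 probes with these names, all 19 passed the filter on dim probes, and the brightest probe stands for each gene, so that 9 of the 21542 gene names tested are members. All 9 members passed the filter, and their brightest probes were well above background on every array.

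The citric acid cycle runs in the mitochondrial matrix, where it burns the acetyl group of acetyl-CoA to carbon dioxide and hands the electrons to the respiratory chain. Citrate synthase starts a turn by joining acetyl-CoA to oxaloacetate, isocitrate dehydrogenase 3 and the alpha-ketoglutarate dehydrogenase complex release the carbon dioxide, succinyl-CoA ligase makes a nucleoside triphosphate, and fumarase hydrates fumarate to malate. In enterocytes the cycle is fed by glutamine and by fatty acids as well as by glucose. PGC1α, the product of *Ppargc1a*, is a coactivator known for raising the transcription of mitochondrial genes together with nuclear receptors such as ERRα, the product of *Esrra*.

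Transcripts were measured in ileum cells of 18 male mice, with 1 mouse on each Agilent one-colour microarray and 6 mice in each of 3 groups. The first group, iPGC1afl/fl CHOW, carried floxed *Ppargc1a* alleles and ate chow over the same 8 weeks from the age of 8 weeks as the other groups their diet. The second, iPGC1afl/fl HFD, had the same genotype and received, for 8 weeks from the age of 8 weeks, a diet with 42% of its kcal as fat and 0.2% cholesterol, which the labels call HFD and the study calls a Western diet. The third, iPGC1a-/- HFD, was given that diet and in addition carried a Cre transgene under the villin promoter, which is active in the intestinal epithelium, so that the other cells of the gut wall kept *Ppargc1a*. All groups were littermates on a C57BL6/J background and were killed after a night without food at zeitgeber time 3, counted in hours from lights on. The diet was compared in iPGC1afl/fl mice alone and the genotype on HFD alone, since a chow group of iPGC1a-/- mice was not analysed here. Both comparisons use the 6 iPGC1afl/fl HFD arrays, and their values are therefore not independent of each other.

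Each of 3 slides held 2 arrays from every group. The share of 59305 non-control spots that was well above background ranged over the arrays from 56.3% to 62.3%, with group medians of 60.9% in iPGC1afl/fl CHOW, 58.3% in iPGC1afl/fl HFD and 58.8% in iPGC1a-/- HFD. The targeted gene did not separate the genotypes in the direction of its label. At the brighter *Ppargc1a* probe the log2 signal ran from 11.26 to 11.45 in iPGC1afl/fl HFD (median 11.40) and from 11.36 to 12.01 in iPGC1a-/- HFD (median 11.63), a difference of 0.30 (SE 0.16, limma adjusted p = 0.573). The second probe gave 0.36 (SE 0.16, limma adjusted p = 0.494). Whether these probes lie in the deleted exons was not determined, and the third group is therefore called the arrays labelled iPGC1a-/-. The study itself reported the deletion by quantitative PCR of the transcript along the intestine, and lower respiration in enterocytes of its knockout mice. Those measurements are not part of these arrays. The defining enterocyte markers were bright on all arrays, *Fabp2* with a mean log2 signal of 18.17 in iPGC1afl/fl CHOW and *Vil1* with 16.29.

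Signals are given as log2 of the median spot intensity after normalization between arrays, and a difference of 1 on this scale is a doubling. Levels of different genes are not set against each other, since each probe binds with its own strength. A member is called changed where the adjusted p of limma, over all 32726 probes, was 0.05 or lower. In bulk samples like these, fewer cells of a type and less RNA per cell cannot be told apart.

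In iPGC1afl/fl mice, 4 of the 9 enzymes were higher on HFD than on chow and 0 were lower. They were *Idh3a*, *Ogdh*, *Dlst* and *Sucla2*, with rises between 1.19-fold and 1.28-fold. Of all genes tested, 10.4% were called higher on HFD and 14.2% lower. The median log2 difference was 0.17 over the 9 members and 0.0031 over all genes. No member rose by more than 1.5-fold, a size that 3.22% of all genes reached among those called higher. Between the genotypes on HFD, 1 of the 9 enzymes was lower in the arrays labelled iPGC1a-/- and 0 were higher. This was *Idh3a*, which fell to 0.703 times its level, while 0.162% of all genes were called lower and 0.065% higher. The median log2 difference between genotypes was -0.08 over the members and 0.0059 over all genes.

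**Figure D1:**
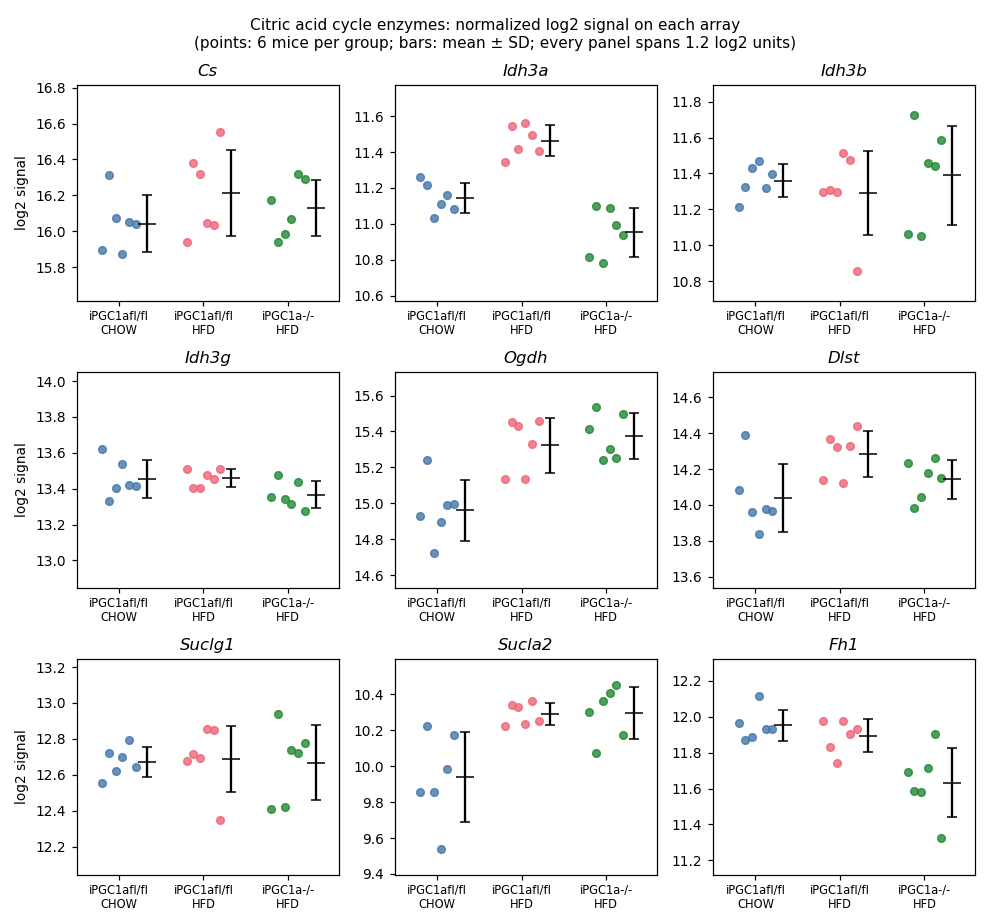
Normalized log2 signal (vertical axis, 1.2 log2 units in every panel) of the 9 enzymes on each of the 18 arrays, by group; points are mice and bars the mean ± SD. The *Idh3a* points of iPGC1afl/fl HFD lie between 11.34 and 11.56, above all points of both other groups, while in every other panel the groups overlap.

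**Figure D2:**
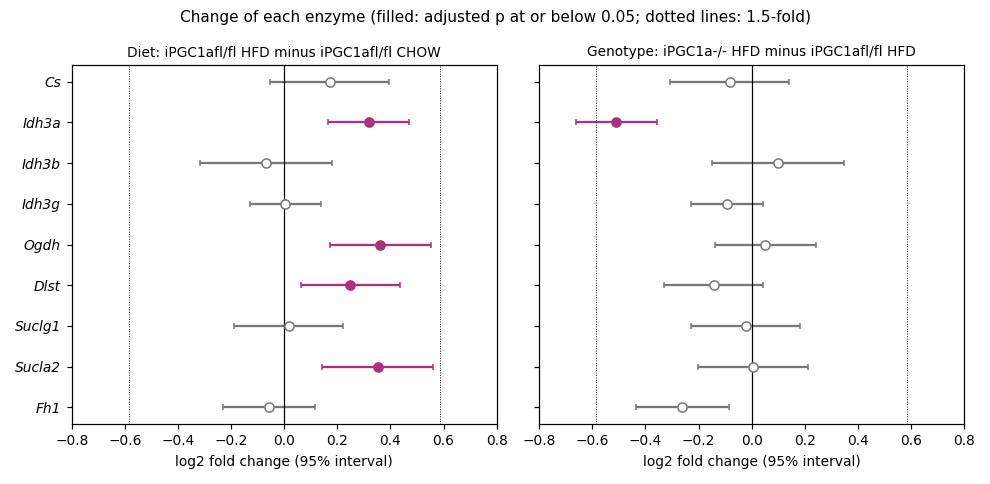
Log2 fold change of each enzyme with its 95% interval for diet (left) and genotype (right); filled points are called at an adjusted p of 0.05 and dotted lines mark 1.5-fold. The 4 filled points on the left are *Idh3a*, *Ogdh*, *Dlst* and *Sucla2*, and the 1 on the right is *Idh3a* at -0.51.

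Citrate synthase, encoded by *Cs*, catalyses the entry of acetyl-CoA. Its log2 signal ran from 15.88 to 16.32 on chow (median 16.05), from 15.94 to 16.55 in iPGC1afl/fl HFD (median 16.18) and from 15.94 to 16.32 in iPGC1a-/- HFD (median 16.12). The 3 ranges overlapped over most of their width. The diet difference was 0.17 (SE 0.11, adjusted p = 0.265, 95% interval -0.05 to 0.39), and the genotype difference was -0.08 (SE 0.11, adjusted p = 0.833, 95% interval -0.31 to 0.14). The second *Cs* probe gave 0.13 for diet and -0.08 for genotype, and neither was called.

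Isocitrate dehydrogenase 3 oxidises isocitrate and is built of a catalytic alpha subunit and regulatory beta and gamma subunits. *Idh3a*, which encodes the alpha subunit, was the only member called in both comparisons. On chow its log2 signal lay between 11.03 and 11.26, with a median of 11.14. In iPGC1afl/fl HFD it lay between 11.34 and 11.56, with a median of 11.46. In iPGC1a-/- HFD it lay between 10.78 and 11.10, with a median of 10.97. All 6 iPGC1afl/fl HFD arrays were thus above all 6 of either other group, and the arrays labelled iPGC1a-/- reached down below the chow arrays while overlapping them. The diet difference was 0.32 (SE 0.07, adjusted p = 0.00342), a rise of 24.7%. The genotype difference was -0.51 (SE 0.07, adjusted p = 0.00225), a change of -29.7%, with a 95% interval from -0.66 to -0.36. Within the 3 slides the diet difference was 0.26 to 0.38 and the genotype difference -0.69 to -0.37. Of all genes, 5.11% lay without overlap higher on HFD and 0.641% without overlap lower in the arrays labelled iPGC1a-/-. *Idh3a* was read by a single probe, at chr9:54451368-54451427 on mm9 in the array's own annotation, so its 2 calls rest on the same 60 bases.

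The regulatory subunits did not show this pattern. *Idh3b*, the beta subunit, ran from 11.21 to 11.47 on chow (median 11.36), from 10.85 to 11.51 in iPGC1afl/fl HFD (median 11.30) and from 11.05 to 11.73 in iPGC1a-/- HFD (median 11.45). Its spread on HFD was wider than on chow, with SDs of 0.23 and 0.28 against 0.09. The differences were -0.07 for diet (SE 0.12, adjusted p = 0.721) and 0.10 for genotype (SE 0.12, adjusted p = 0.818). *Idh3g*, the gamma subunit, varied least of the 3 subunits on HFD: it ran from 13.33 to 13.62 on chow (median 13.42), from 13.40 to 13.51 in iPGC1afl/fl HFD (median 13.47) and from 13.28 to 13.47 in iPGC1a-/- HFD (median 13.35). Its diet difference was 0.0044 (SE 0.06, adjusted p = 0.970, 95% interval -0.13 to 0.14) and its genotype difference -0.09 (SE 0.06, adjusted p = 0.658, 95% interval -0.23 to 0.04). Its other probes gave 0.10 and 0.11 for diet and 0.07 and 0.07 for genotype, none of them called.

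The change of *Idh3a* relative to the other subunits can be read on each array. The log2 ratio of *Idh3a* to *Idh3g* averaged -2.31 ± 0.11 on chow, -1.998 ± 0.12 in iPGC1afl/fl HFD and -2.41 ± 0.13 in iPGC1a-/- HFD (SD, n = 6 each), where the size of a ratio also holds the strengths of both probes and only its shift between groups is read. The ratio was thus higher by 0.31 on HFD than on chow and lower by 0.42 in the arrays labelled iPGC1a-/-. The 6 arrays labelled iPGC1a-/- all lay below the 6 iPGC1afl/fl HFD arrays in this ratio, as they did in the ratio of *Idh3a* to *Idh3b*, which shifted by -0.61 for genotype and by 0.39 for diet. These ratios are given as a description and were not tested.

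The alpha-ketoglutarate dehydrogenase complex makes succinyl-CoA. *Ogdh* encodes its first, decarboxylating enzyme. The log2 signal of *Ogdh* ran from 14.72 to 15.24 on chow (median 14.96), from 15.13 to 15.46 in iPGC1afl/fl HFD (median 15.38) and from 15.24 to 15.54 in iPGC1a-/- HFD (median 15.36). One chow array, replicate 2, reached into the range of the HFD arrays, and the others lay below it. The diet difference was 0.36 (SE 0.09, adjusted p = 0.00693), with 0.23 to 0.56 within slides. The other *Ogdh* probes were called higher as well, by 0.32 and 0.27. The first of these lay beside the brightest probe, and the second was dim, with a mean log2 signal of 5.42 on chow. The genotype difference was 0.05 (SE 0.09, adjusted p = 0.881, 95% interval -0.14 to 0.24).

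*Dlst* encodes the succinyltransferase core of the same complex. It ran from 13.84 to 14.39 on chow (median 13.97), from 14.12 to 14.44 in iPGC1afl/fl HFD (median 14.32) and from 13.98 to 14.26 in iPGC1a-/- HFD (median 14.16). The highest chow array was again replicate 2, above most HFD arrays. The diet difference of 0.25 lay at the edge of the call (SE 0.09, adjusted p = 0.0496), with 0.16 to 0.32 within slides. With the slide as a block its adjusted p was 0.0623, without the filter on dim probes 0.062 and with only the 2 groups compared 0.0796. It was lost on leaving out any of 14 of the 18 arrays, with adjusted p-values up to 0.124 without the chow array of replicate 4. Of its 3 other probes 1 was called higher, by 0.30, and the rest gave 0.14 and 0.18. The genotype difference was -0.14 (SE 0.09, adjusted p = 0.620), negative in all 3 slides and at all 4 probes, and none of the 4 probes was called.

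Succinyl-CoA ligase couples the cleavage of succinyl-CoA to the making of a nucleoside triphosphate. *Suclg1* encodes the alpha subunit that every form of the enzyme contains, and *Sucla2* the beta subunit of the ATP-forming one. *Suclg1* ran from 12.56 to 12.79 on chow (median 12.67), from 12.35 to 12.85 in iPGC1afl/fl HFD (median 12.70) and from 12.41 to 12.94 in iPGC1a-/- HFD (median 12.73). Its group means differed by less than the spread of single arrays, by 0.02 for diet (SE 0.10, adjusted p = 0.922) and by -0.02 for genotype (SE 0.10, adjusted p = 0.959).

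*Sucla2* ran from 9.54 to 10.23 on chow (median 9.92), from 10.22 to 10.36 in iPGC1afl/fl HFD (median 10.29) and from 10.07 to 10.46 in iPGC1a-/- HFD (median 10.33). The chow arrays were spread widely, and the highest of them, replicate 2, touched the lowest iPGC1afl/fl HFD array. The diet difference was 0.35 (SE 0.10, adjusted p = 0.0143), with 0.20 to 0.50 within slides. The second *Sucla2* probe, with a mean log2 signal of 5.93 on chow, gave 0.15 and was not called (adjusted p = 0.199). The genotype difference was 0.0057 (SE 0.10, adjusted p = 0.991, 95% interval -0.20 to 0.21). At the second probe it was -0.19 (SE 0.08, adjusted p = 0.478, 95% interval -0.36 to -0.02) and was not called.

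Fumarase, encoded by *Fh1*, turns fumarate into malate. It ran from 11.87 to 12.12 on chow (median 11.93), from 11.74 to 11.98 in iPGC1afl/fl HFD (median 11.92) and from 11.32 to 11.90 in iPGC1a-/- HFD (median 11.64). Most arrays labelled iPGC1a-/- lay below the other groups, and the ranges overlapped. The genotype difference of -0.26 (SE 0.08, 95% interval -0.44 to -0.09) was not called: its limma p was 0.00553 unadjusted and 0.334 after adjustment over all probes. It was negative within each slide, from -0.34 to -0.12. The diet difference was -0.06 (SE 0.08, adjusted p = 0.665).

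**Figure D3:**
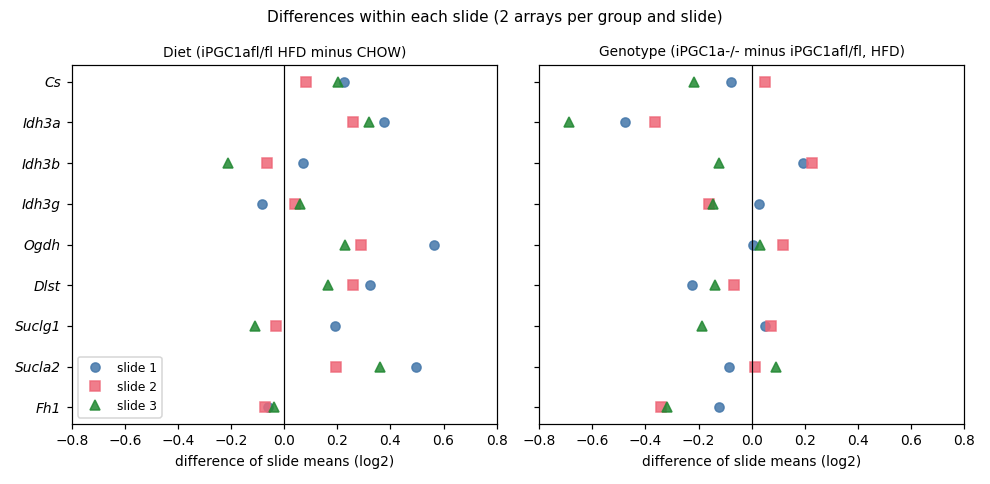
Difference of group means within each of the 3 slides, 2 arrays per group and slide, for diet (left) and genotype (right), in log2 units. *Idh3a*, *Ogdh*, *Dlst*, *Sucla2* and *Cs* were higher on HFD in all 3 slides, and *Idh3a*, *Dlst* and *Fh1* were lower in the arrays labelled iPGC1a-/- in all 3.

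The precision of the arrays bounds what was not called. Every 95% interval of a member lay within 1.5-fold of no change in the diet comparison, and 8 of 9 did in the genotype comparison, the exception being *Idh3a*. The half-width of the widest interval was 0.25, that of *Idh3b*.

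Markers of other cell types moved with the diet, where 10.4% of all genes were called higher and 14.2% lower. All 5 measured T cell markers were lower on HFD, with a median log2 difference of -1.59, and their summed signal ran from 13.55 to 15.41 on chow and from 12.37 to 13.11 in iPGC1afl/fl HFD, over 6 and 5 arrays respectively, since an outlying spot removed 1 array from the sum. All 3 measured B and plasma cell markers were lower (median -1.95), as were all 4 goblet markers (median -0.73) and all 4 markers of cycling cells (median -0.58). Of 8 enterocyte markers, 2 were called higher and 1 lower, with a median of 0.18. *Alpi*, the brush border alkaline phosphatase, was higher by 0.90 and *Apoa4*, an apolipoprotein of chylomicrons, by 0.98, while *Slc10a2*, the ileal bile acid transporter, had a log2 difference of -1.07. In the Paneth, enteroendocrine, tuft and myeloid lists 1 gene each was called lower and 0 higher, and no gene of the crypt stem, fibroblast, smooth muscle or endothelial lists was called in the diet comparison. The part of these markers in the diet differences of the enzymes was not tested. In the genotype comparison 0 markers were called in any of the 13 lists, where 0.065% of all genes were called higher and 0.162% lower. With so few calls over all genes, a count of 0 in lists of this size says little. The uncalled differences ran from -0.89 for the Paneth marker *Ang4* (limma adjusted p = 0.199) to 0.49 for the goblet marker *Fcgbp* (limma adjusted p = 0.505). The summed T cell signal in iPGC1a-/- HFD, 12.65 to 13.42, overlapped that of iPGC1afl/fl HFD.

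Other enzymes around the cycle were followed as lists. Beside each count stand the shares over all genes, 10.4% called higher on HFD and 14.2% lower. For genotype these shares were 0.065% higher and 0.162% lower. Of 9 further cycle enzymes, 1 was called on HFD: *Mdh2*, the mitochondrial malate dehydrogenase that closes the cycle, was higher by 0.32 (SE 0.09, limma adjusted p = 0.0143). The count was 2 under 4 other ways of processing and without the iPGC1a-/- HFD array of replicate 5, and 0 at an adjusted p of 0.01. This list, which also holds the succinate dehydrogenase subunits, had a median diet difference of 0.03, and its median genotype difference was -0.18 with 0 of 9 called.

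At the entry points of the cycle the called diet differences reached 2.27. Of 14 genes of pyruvate entry, 3 were higher and 1 lower on HFD, against 10.4% and 14.2% of all genes. The median diet difference of this list was 0.0038. *Pdk4* and *Pdk2*, kinases that switch off pyruvate dehydrogenase, were higher by 2.27 (SE 0.28) and 0.87 (SE 0.12), and *Mpc1*, a subunit of the mitochondrial pyruvate carrier, by 0.22 (SE 0.07). *Pdhb*, a subunit of pyruvate dehydrogenase itself, was lower by 0.25 (log2 difference -0.25, SE 0.08). The call of *Mpc1* was lost with array weights (adjusted p = 0.0545) and that of *Pdhb* with the processed signal scaled to the 75th percentile (adjusted p = 0.112). The count of 4 dropped to 2 without the chow array of replicate 4 and without the iPGC1afl/fl HFD array of replicate 2 or 3.

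Of 5 genes for citrate export and cytosolic use, 3 were higher and 1 lower on HFD. *Me1*, the cytosolic malic enzyme that supplies NADPH, was higher by 1.94 (SE 0.24), *Idh1*, the cytosolic isocitrate dehydrogenase, by 1.18 (SE 0.10), and *Aco1*, the cytosolic aconitase, by 0.86 (SE 0.09). *Acly*, which splits exported citrate into acetyl-CoA and oxaloacetate, had a log2 difference of -0.52 (SE 0.10).

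Of 9 genes by which amino acids, odd-chain fatty acids and ketone bodies join the cycle, 4 were higher and 1 lower. *Glud1*, which turns glutamate into alpha-ketoglutarate, was higher by 0.84 (SE 0.13). *Pccb*, a subunit of propionyl-CoA carboxylase, was higher by 0.41 (SE 0.09). *Oxct1*, which activates ketone bodies with succinyl-CoA, had a log2 difference of -0.60 (SE 0.16). In the genotype comparison 0 genes of these 3 lists were called.

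Among 9 regulators of mitochondrial biogenesis, 1 was higher and 2 were lower on HFD, against 10.4% and 14.2% of all genes. The median diet difference of this list was -0.11. *Ppargc1b* and *Pprc1*, relatives of *Ppargc1a*, had log2 differences of -0.54 (SE 0.14) and -0.49 (SE 0.16). The call of *Pprc1* was lost with averaged probes, where its difference was -0.075 (adjusted p = 0.454), with only the 2 groups compared (adjusted p = 0.0522) and without any one of 5 of the 18 arrays, namely chow replicates 4 and 6 and iPGC1afl/fl HFD replicates 2, 3 and 6. *Ppargc1a* itself had a diet difference of 0.44 at its brighter probe (SE 0.16, adjusted p = 0.0556) and of 0.51 at its second probe, which was called (SE 0.16, adjusted p = 0.0272). *Esrra* was the 1 regulator called higher at its brightest probe, and it was also the 1 called lower in the arrays labelled iPGC1a-/-. Its diet difference was 0.34 (SE 0.08, limma adjusted p = 0.00551) and its genotype difference -0.41 (SE 0.08, limma adjusted p = 0.0483). In *Esrra* the 6 arrays labelled iPGC1a-/- lay below the 6 iPGC1afl/fl HFD arrays without overlap, as 0.641% of all genes did. The genotype call of *Esrra* was at the edge of the threshold: it was lost without any one of 14 of the 18 arrays and in 7 of 13 other ways of processing. Among these were the slide as a block (adjusted p = 0.0726), the replicate block (adjusted p = 0.0796) and the processed signal scaled to the 75th percentile (adjusted p = 0.0619).

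**Figure D4:**
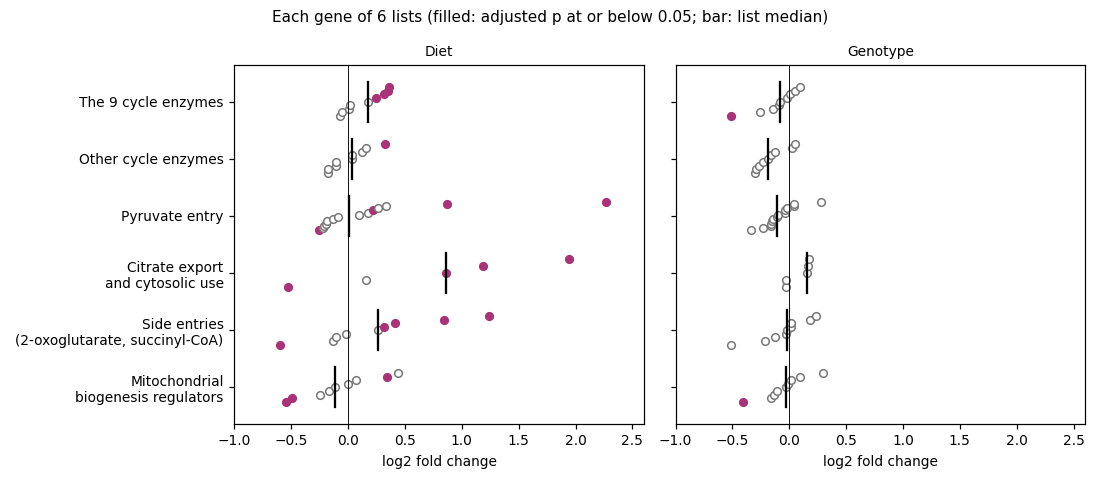
Log2 fold change of each gene of the 9 cycle enzymes and of 5 lists around them, for diet (left) and genotype (right); filled points are called at an adjusted p of 0.05 and bars mark list medians. On the left the called points reach 2.27 at pyruvate entry (*Pdk4*), and on the right the filled points are *Idh3a* and *Esrra*.

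The 9 enzymes did not vary as a single set from mouse to mouse. After subtraction of the group means, the 36 pairwise Pearson correlations over 18 arrays ran from -0.54 to 0.94 with a median of -0.04, and 16 were positive. Some members did vary together. Among *Cs*, *Ogdh*, *Dlst* and *Sucla2* every pairwise r was positive, from 0.21 to 0.77, and *Idh3a* had r = 0.54 with *Idh3b* and 0.65 with *Suclg1*. These sets were picked after the values were seen. The points share arrays, slides and normalization, and the values are a description. *Cs* and *Dlst* had r = 0.77, and 0.80, 0.85 and 0.83 within the 6 arrays of the chow, iPGC1afl/fl HFD and iPGC1a-/- HFD groups.

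The highest r of all pairs, 0.94, joined *Idh3b* and *Suclg1*, a subunit of isocitrate dehydrogenase and one of succinyl-CoA ligase. Within groups of 6 arrays it was 0.998 in iPGC1afl/fl HFD and 0.995 in iPGC1a-/- HFD but 0.225 on chow, where both genes varied little, and without the 2 arrays farthest from the *Idh3b* median it was 0.89 (Spearman's rho 0.69). The deviations also moved with the brightness of the array, *Idh3b* with r = 0.40 and *Suclg1* with r = 0.46 against its median signal. The probes of the pair are shown as a description, and whether they read a transcript in common was not tested. Their 60 bases, which the array files place on mm9 at chr2:130106776-130106835 on the minus strand and chr6:73221044-73221103 on the plus strand, shared no run longer than 6 bases on either strand.
Idh3b: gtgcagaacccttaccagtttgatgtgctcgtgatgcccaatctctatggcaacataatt
Suclg1: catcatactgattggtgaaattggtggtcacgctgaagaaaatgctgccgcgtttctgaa

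**Figure D5:**
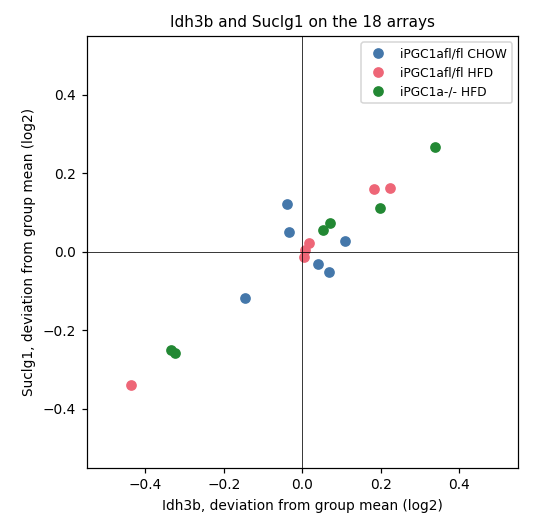
Deviation of *Suclg1* (vertical) against that of *Idh3b* (horizontal) from the group mean, in log2 units, on the 18 arrays, coloured by group. The HFD arrays lie along a line, with r of 0.998 and 0.995 in the 2 HFD groups. In iPGC1afl/fl HFD, replicates 1, 2 and 3 lie nearest the origin, and replicate 6 lies at -0.44 for *Idh3b* and -0.34 for *Suclg1*. The chow deviations of *Idh3b* run from -0.15 to 0.11.

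The pattern of the members as a whole was summarised by the mean z score of the 9 brightest probes on each array. The genes most like it over the 18 arrays were *Sgk3* with r = 0.86, *Mrps36* with 0.82, *Manba* with 0.80, an unnamed transcript with 0.79 and *Ckmt1* with 0.78. These r values are the highest of all gene names tested and were selected as such.

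Promoter sequence was searched in the windows of RefSeq on GRCm38.p6, from 250 bases before to 50 bases after each start of transcription. The table held windows for 8 of the 9 members, all but *Idh3a*. The letters TCAAGGTCA of the estrogen-related receptors were in the windows of 0 of 8 members and of 0.466% of all 27025 genes with a window, and the PPAR/RXR motif in those of 0 of 8 and of 0.048%. The NRF1 letters GCGCATGCG were found for 1 member, *Ogdh*, against 1.95% of all genes. The ETS letters CCGGAAG were found for 3 members (*Idh3b*, *Idh3g* and *Dlst*) against 9.93% of genes, and the NF-Y letters CCAAT for 4 (*Cs*, *Idh3b*, *Ogdh* and *Fh1*) against 41.1%. Both strands were searched, and *Ogdh*, with 6 windows, had more sequence in which to hold a match than a gene with 1. A match is a description of these letters and not a site. The stretches below lie before the start, read 5′ to 3′ on the strand of the gene, and carry the match in capitals, CCAAT appearing as ATTGG where it lies on the opposite strand. They are shown for *Ogdh*, called higher on HFD, and for uncalled members beside it. *Dlst*, also called higher on HFD, held its ETS match after the start, and that match is not printed.
Ogdh, NRF1, chr11:6292533-6292557 plus strand: taggtgttgtGCGCATGCGtaactc
Ogdh, NF-Y, chr11:6291527-6291551 plus strand: cgactgaaacCCAATtctgtgacgt
Idh3g, ETS, chrX:73786985-73787011 minus strand: gctctaggcaCCGGAAGggggcgtaag
Idh3b, NF-Y, chr2:130284513-130284537 minus strand: cacaccgccgATTGGtacgggagaa
Cs, NF-Y, chr10:128337662-128337686 plus strand: ccattttgggCCAATggtcgaggcc
Fh1, NF-Y, chr1:175625640-175625664 minus strand: gaggcgtttgATTGGttacgagcgt
The windows of *Sucla2*, called higher on HFD, held none of the 5 motifs. Any link of these letters to the differences between groups was not tested.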

How the data were processed

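Ileum cells were isolated by a modified Weiser method, and their Cy3-labelled cRNA was hybridised to Agilent SurePrint G3 Mouse GE v2 arrays, 1 for each of 18 mice. Groups came from the sample labels, and each sample was a separate mouse. The authors deposited spot intensity values from Feature Extraction 10.10.1.1, not normalized between arrays, and a table of normalized log2 values for 33095 probes. No column was left without a sample. Their methods also correct for washing bath and labelling serial, which the labels do not name and which was not repeated here.

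Control spots and 46 to 153 outlier spots an array were excluded, 0 spots were saturated, and spots of one probe were averaged. A probe was retained if it was well above background on 5 or more of the 6 arrays of at least one group. Median signals were log2 transformed, normalized by a re-implementation of qsmooth (window 0.05) and tested with limma 3.58.1 in R 4.3.3, where all 3 groups entered one model and Benjamini-Hochberg adjustment ran over 32726 probes. Adjusted p-values in the text are from this model. The normalized values correlated with the authors' log2 table at r between 0.999994 and 0.999998 on every array.

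The 9 members, the lists and the tests were chosen with earlier results of these data known. Named genes were the members, *Ppargc1a*, the 5 genes most like the members' mean and the called genes of each list. Of the called genes at most 4 per list and comparison were taken, by size of the log2 fold change. *Alpi*, *Apoa4*, *Slc10a2*, *Fabp2*, *Vil1*, *Ang4* and *Fcgbp* were chosen outside this rule, after their values were seen. The values of 1 gene that this rule names are not reported here. Subunit ratios were added after the data were seen. Probe positions are given on mm9, as the array files state them, and promoters on GRCm38.p6 from RefSeq.

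On simulated arrays with 200 changed probes among 32726, 56% of log2 changes of 0.5 and 98% of changes of 1 were recovered for diet, with 8 false calls, and 57% and 98% for genotype, with 9. In the data 7485 probes were called for diet, many more than 200, and 66 for genotype, fewer than 200. The shares recovered therefore do not carry over to either comparison of these data. The number of arrays and the signal over background set the precision, and the median standard error was 0.11. Alternatives were other background corrections and scalings, the authors' log2 values, other filters, slide and replicate blocks, only the 2 groups compared, a trended robust variance, array weights, averaged probes, other thresholds and each array left out. Plots were drawn with matplotlib in Python.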

Additional observations from a re-analysis of the deposited data

Results flagged for a closer look

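On 2 of the 27 sets of 6 arrays (9 members in 3 groups), 1 array lay apart from the others by Dixon's test, which chance alone flags in about 1 of 20 sets. Both were the iPGC1afl/fl HFD array of replicate 6. It held an *Idh3b* log2 signal of 10.85, where the next array held 11.30, a gap of 0.669 of the group's range against a critical value of 0.625. It held a *Suclg1* signal of 12.35, where the next array held 12.68, a gap of 0.647 of the range. The same array had the highest *Cs*, *Ogdh* and *Dlst* signals of its group. The cause was not tested.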

How the results depend on the processing

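Over the 13 other ways of processing the arrays, the count of members called lay between 3 and 4 for diet and stayed at 1 for genotype. At an adjusted p of 0.01 it was 2 for diet, and with a fold change above 1.5 also required it was 0 for both diet and genotype. Leaving out each array gave 3 to 4 members for diet and 1 for genotype. *Idh3a* kept both calls under these 13 and without any one array, at 0.32 to 0.37 for diet and -0.54 to -0.50 for genotype over the 13, and *Ogdh* and *Sucla2* kept their diet calls under the same alternatives. At an adjusted p of 0.01 the diet call of *Sucla2* was lost, and with the fold change required *Idh3a* lost both of its calls. *Dlst* lost its diet call in 5 of the 13. Of 234 member values under the alternatives, 219 kept their direction and their side of the threshold, and 10 changed sign, all of them close to 0 and uncalled. For genotype, *Ogdh* was -0.012 with the processed signal and -0.0089 with the raw median signal, both scaled to their 75th percentile. *Sucla2* was -0.044 and -0.0019 under these, -0.030 with normexp, -0.00039 with quantile normalization, -2.47e-05 with the authors' log2 values and -0.094 with averaged probes. Averaged probes gave *Idh3g* 0.016 for genotype and *Suclg1* -0.041 for diet. With 1 array left out, the diet difference ran from -0.126 to 0.0256 for *Idh3b*, from -0.0175 to 0.0338 for *Idh3g* and from -0.0242 to 0.0887 for *Suclg1*, and the genotype difference from -0.0922 to 0.0312 for *Suclg1* and from -0.0376 to 0.0530 for *Sucla2*. The diet difference of *Ppargc1a* was called with percentile scaling of the median signal (0.49), with the replicate block (0.44) and with averaged probes (0.47), and ran from 0.27 to 0.50 with 1 array left out. The causes were not tested. The replicate numbers were not taken to pair the mice, by a rule that asked every same-numbered pair to correlate above 0.1. The correlations of their deviations ran from -0.13 to 0.28 (diet, 4 of 6 above 0.1) and from -0.19 to 0.33 (genotype, 3 of 6). An array correlated best with its own number in 4 of 6 and 3 of 6, more often than an even draw among 6 arrays would give. Whether arrays of the same number share a factor was not tested. With the replicate block 3 members were called for diet and 1 for genotype, *Dlst* having an adjusted p of 0.0618. At 0.5 on the log2 scale the simulation recovered 56% of changes for diet. It changed 200 probes, while 7485 probes were called for diet in the data, so this share does not carry over to diet. For genotype 66 probes were called, fewer than 200, so the share of 57% does not carry over to genotype either. The members called for diet changed by less than 0.5, and a change of such size in another member could still be missed.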
